A study of Mus musculus with 4 samples.

Results

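The population described here was a set of 65 cardiomyocyte nuclei, out of 8585 deposited, that carried 2 labels of different origin. Their final label was CM2, the cycling population of the study, and the label transferred to them from the laboratory's earlier nuclei was CM1, the most common cardiomyocyte state. They were found by reading both labels in the deposited annotation of nuclei, and are written CM2/CM1 below. The final label CM2 was given to 275 nuclei, of which 197 received the transferred label CM5 (CM2/CM5), 8 received CM3 and 5 received CM4. Of the nuclei with the final label CM5, in turn, 743 had received CM2, so the names CM2 and CM5 stand crosswise in the pair of label columns. The other reference class was CM1/CM1, the 5305 nuclei with CM1 as both labels. The comparison asks which genes of the cell cycle the CM2/CM1 nuclei shared with the rest of CM2, and which were missing.

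Nuclei came from heart tissue below the plane of ligation, collected 1 day after surgery at postnatal day 3. All mice carried a loxP-flanked Nrf1 allele (Nrf1fl/fl) on a C57BL/6 background. The knockout (KO) also carried aMHC-Cre, a recombinase driven in cardiomyocytes by the alpha myosin heavy chain promoter, and the control without Cre was labelled wild type (WT). Surgery was either Sham or infarction (MI), made by tying off the left anterior descending artery. The 4 groups were 1 library each, from a pool of 4 to 6 hearts, and values by library are given below in the order WT-MI, KO-MI, WT-Sham, KO-Sham. No difference between groups therefore had a replicate, and no test was made.

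Libraries held 1406 to 3328 nuclei and 4984625 to 9106522 UMIs (unique molecular identifiers, each a captured RNA molecule). The libraries shared 9 cell barcodes, none of them in a CM2/CM1 nucleus. Transcripts of the deleted gene, listed as Nfe2l1, stood at 47.4, 55.3, 62.2 and 50.5 CPM (UMIs scaled so that every library or class has the same total). The library labelled KO-MI thus lay above that labelled WT-MI, against the labels. The deleted exons are not given in the sources used here, so this count may lie outside them and does not check the genotype. In CM2/CM1 nuclei Nfe2l1 had 13 UMIs in all, 6, 3, 0 and 4 by library.

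The cell cycle runs from origin licensing and DNA synthesis in S phase through G2 to mitosis and cytokinesis. Genes for the replication machinery are switched on before and during S phase, largely through E2F factors, whereas genes for condensation, the kinetochore and the spindle peak later, in G2 and mitosis, through promoters that often hold a CHR element (cell cycle genes homology region) and CCAAT boxes. Neonatal cardiomyocytes still divide in the first days after birth and then largely stop. Mki67 (a protein of the mitotic chromosome surface), Top2a (topoisomerase II alpha, which untangles sister chromatids) and Neil3 (a DNA glycosylase of replicating cells) are the markers used for the cycling class.

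The promoters of the 3 markers are printed, for comparison with that of an S phase gene, from 250 bases before to 50 bases after the start site (RefSeq, GRCm38.p6). The S phase gene, Pola1, encodes the catalytic subunit of DNA polymerase alpha and was chosen after its values were seen. Capitals mark matches on either strand. The CHR was searched as TTTGAA and, as its other form, TTCGAA. The E2F site was searched as TTTCCCGC and also as TTTGGCGC, and the third motif was the CCAAT box.
Mki67: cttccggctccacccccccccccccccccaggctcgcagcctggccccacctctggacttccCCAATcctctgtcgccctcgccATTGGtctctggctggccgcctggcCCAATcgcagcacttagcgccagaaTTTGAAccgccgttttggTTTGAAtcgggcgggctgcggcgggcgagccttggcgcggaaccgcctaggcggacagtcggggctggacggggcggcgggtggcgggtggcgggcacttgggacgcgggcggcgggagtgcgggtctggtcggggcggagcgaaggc
Top2a: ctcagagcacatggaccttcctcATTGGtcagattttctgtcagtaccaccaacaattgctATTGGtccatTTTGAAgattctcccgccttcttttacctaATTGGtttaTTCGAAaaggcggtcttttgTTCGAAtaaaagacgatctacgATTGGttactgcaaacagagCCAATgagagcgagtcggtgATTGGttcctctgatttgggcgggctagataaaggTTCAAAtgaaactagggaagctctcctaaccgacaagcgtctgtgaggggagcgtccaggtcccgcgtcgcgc
Neil3: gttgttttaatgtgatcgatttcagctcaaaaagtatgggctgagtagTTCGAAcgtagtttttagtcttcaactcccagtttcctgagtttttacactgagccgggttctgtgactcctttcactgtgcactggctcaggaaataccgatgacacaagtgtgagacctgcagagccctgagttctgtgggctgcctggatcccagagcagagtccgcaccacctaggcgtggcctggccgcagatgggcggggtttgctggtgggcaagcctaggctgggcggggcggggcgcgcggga
Pola1: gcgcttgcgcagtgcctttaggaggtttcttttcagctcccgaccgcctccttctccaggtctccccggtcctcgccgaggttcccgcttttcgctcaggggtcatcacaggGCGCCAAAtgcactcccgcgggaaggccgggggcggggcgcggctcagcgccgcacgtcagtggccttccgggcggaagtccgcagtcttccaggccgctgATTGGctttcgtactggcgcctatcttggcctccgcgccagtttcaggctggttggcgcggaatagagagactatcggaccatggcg

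These windows lie at chr7:135716330-135716629, chr11:99024140-99024439, chr8:53639016-53639315 and chrX:93632106-93632405, all on the minus strand. The Mki67 window held 2 CHR matches and 3 CCAAT boxes, the Top2a window 4 and 6, and the Neil3 window 1 CHR match and no CCAAT box. None of these 3 held the E2F letters, and Pola1 held 1 E2F match, 1 CCAAT box and no CHR match. No matches overlapped in the printed windows. Over all 32851 promoters of the table, 19.2% held a CHR match, 37.4% a CCAAT box and 1.56% the E2F letters. Among promoters of the G2/M lists defined below (73 of 89 genes in the table), 67.9% held a CHR match, 66.7% a CCAAT box and 7.41% the E2F letters. Among those of the S lists (67 of 85 genes), 21.5%, 55.7% and 26.6% did. A match of letters describes the window and is not a bound site.

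One CM2/CM1 nucleus of WT-MI stood apart from the rest and is named before the results that it touches. It held 9599 UMIs, the most of all 8585 nuclei, and 3964 of them came from 5 genes of red blood cells, which was 88.8% of the 4465 such UMIs in the class. The next highest CM2/CM1 nucleus held 25. Its cell cycle UMIs were 8 from the S lists and 112 from the G2/M lists, against at most 51 from the G2/M lists in any of the other 64. Without it, summed red blood cell genes stood at 2017 CPM in CM2/CM1, 1787 in CM2/CM5 and 2592 in CM1/CM1, against 17308 CPM in CM2/CM1 with it. Clusters of the integrated data placed 61 of the 65 nuclei and all 197 CM2/CM5 nuclei in cluster 19, whereas 3 fell in cluster 0 and 1 in cluster 4, both large clusters of CM1/CM1. Of these 4, 1 held 20 endothelial UMIs and 1 held only 1 UMI from the S lists and 17 from the G2/M lists.

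The CM2/CM1 nuclei were as deep as their neighbours. The median nucleus held 3843 UMIs and 1995 genes, against 3817 and 1930 in CM2/CM5 and 3387 and 1666 in CM1/CM1. The median percent of mitochondrial UMIs was 5.41, 6.01 and 6.66 in the same order. Summed over nuclei, the classes held 257976, 754722 and 18738287 UMIs, so that 3 UMIs, the limit set by a count of 0, equal 11.6 CPM in CM2/CM1 and 154 CPM in its 5 nuclei of WT-Sham. All intervals below are 95% and cover counting error only.

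CM2/CM1 nuclei occurred in all 4 libraries, and numbered 21, 15, 5 and 24. As a share of all CM2 nuclei they made up 23.6% (Clopper-Pearson interval 18.7 to 29.1%). By library the share was 36.8% (24.4 to 50.7%) of 57 CM2 nuclei, 22.4% (13.1 to 34.2%) of 67, 18.5% (6.3 to 38.1%) of 27 and 19.4% (12.8 to 27.4%) of 124. It was highest in WT-MI, but the 4 intervals overlapped.

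All 3 markers were detected in CM2/CM1, well above CM1/CM1 and well below CM2/CM5. Mki67 (chromosome 7, 135689784 to 135716361) had 17 UMIs in CM2/CM1, at 49.8, 47.8, 51.4 and 106 CPM by library. In CM2/CM5 the same libraries gave 339, 235, 269 and 368 CPM, so that the lowest CM2/CM5 value exceeded the highest CM2/CM1 value. Top2a (chromosome 11, 98992943 to 99024189) had 53 UMIs, at 209, 175, 51.4 and 265 CPM. Its CM2/CM5 values were 829, 632, 688 and 700 CPM, again without overlap. Neil3 (chromosome 8, 53586867 to 53639065) had 12 UMIs, at 10.0, 47.8, 103 and 79.6 CPM, against 304, 211, 376 and 352 CPM in CM2/CM5. In CM1/CM1 the highest library value was 14.3 CPM for Mki67, 25.2 for Top2a and 1.81 for Neil3.

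As log2 ratios of CPM, CM2/CM1 over CM2/CM5, the markers stood at -2.25 (interval -3.06 to -1.54) for Mki67, -1.78 (-2.21 to -1.37) for Top2a and -2.72 (-3.70 to -1.89) for Neil3. Over CM1/CM1 they stood at 2.36 (1.56 to 3.07), 3.37 (2.93 to 3.79) and 4.86 (3.76 to 5.87). Since the nuclei were clustered, and their labels transferred, from these same counts, such ratios describe the class and are not tests. A UMI of Mki67 was found in 18.5% of CM2/CM1 nuclei, in 61.4% of CM2/CM5 and in 4.28% of CM1/CM1, and after thinning each nucleus to 1000 UMIs in 9.23%, 28.4% and 1.38%. For Top2a the unthinned shares were 46.2%, 86.8% and 6.73% and the thinned ones 20%, 45.7% and 1.998%. For Neil3 they were 15.4%, 59.9% and 0.566%, and 4.62%, 24.4% and 0.151% after thinning. Thinning left out no CM2 nucleus and 1 of CM1/CM1. None of the 3 markers was seen in 25 of the 65 CM2/CM1 nuclei (38.5%), in 3.55% of CM2/CM5 and in 88.9% of CM1/CM1. All 3 together were seen in 2 CM2/CM1 nuclei and in 67 of CM2/CM5.

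**Figure D1:**
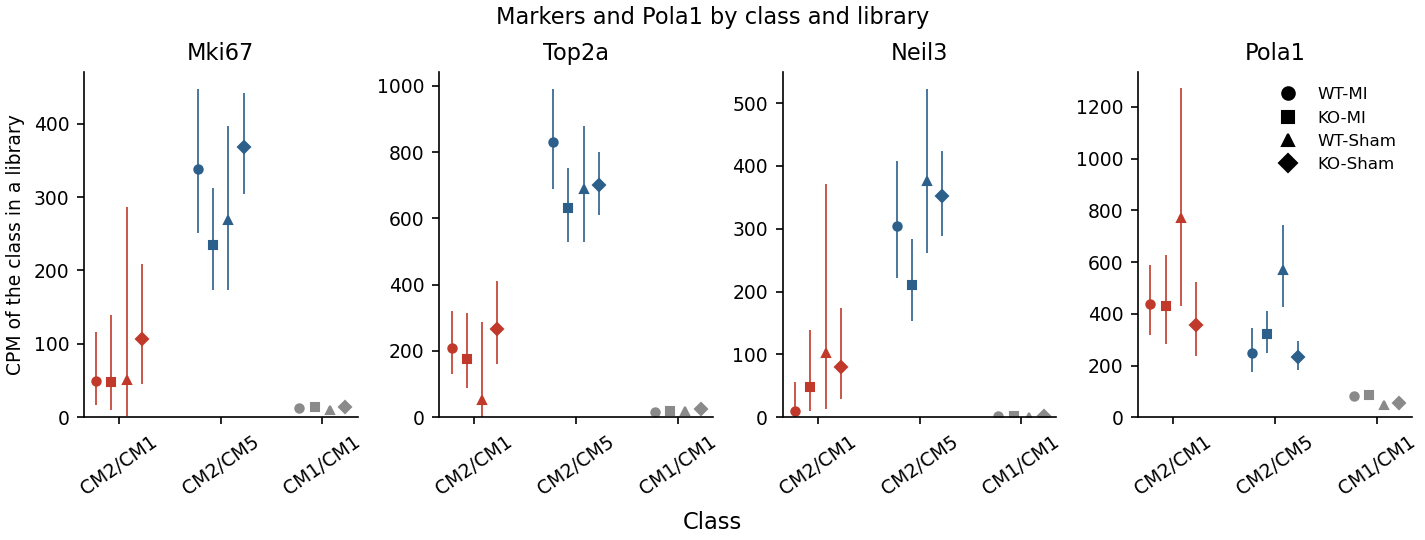
CPM (y axis, linear, from 0) of Mki67, Top2a, Neil3 and Pola1 in the 3 classes (x axis), with 1 symbol per library and exact 95% Poisson intervals as bars. The 3 markers lie lower in CM2/CM1 than in CM2/CM5 in all 4 libraries, whereas Pola1 lies higher in CM2/CM1 in all 4.

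Summed over the class, genes of S phase stood at the level of CM2/CM5. That reference is mixed, since 147 of its 197 nuclei held more G2/M than S UMIs. The S lists hold 85 genes of origin licensing (25), DNA synthesis and nucleotide supply (35) and repair at replication forks (25). Their summed level was 6032 CPM in CM2/CM1 (Poisson interval 5736 to 6339), 6022 in CM2/CM5 and 984 in CM1/CM1. The log2 ratio was 0.0023 over CM2/CM5 (interval -0.08 to 0.09) and 2.62 over CM1/CM1 (2.54 to 2.69). By library, CM2/CM1 stood at 5960, 6291, 7197 and 5611 CPM, and CM2/CM5 at 6233, 5453, 8285 and 5622. The classes overlapped, and CM2/CM1 was the higher in 1 of 4 libraries. In CM1/CM1 the libraries reached at most 1109 CPM. Without the nucleus that stood apart the S level was 6232 CPM.

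Genes of G2 and mitosis were present at 0.361 times the level of CM2/CM5. The G2/M lists hold 89 genes, 27 for cyclins, kinases and other regulators, 16 for condensation, cohesion and the chromosome surface, 31 for the kinetochore and spindle and 15 for cytokinesis. Their summed level was 4388 CPM in CM2/CM1 (4136 to 4651), 12152 in CM2/CM5 and 749 in CM1/CM1. The log2 ratio was -1.47 over CM2/CM5 (-1.56 to -1.38) and 2.55 over CM1/CM1 (2.46 to 2.64). Across libraries the level in CM2/CM1 was 4295, 4491, 4987 and 4271 CPM, and that in CM2/CM5 at 12528, 11553, 10133 and 12968. No library of CM2/CM1 reached any of CM2/CM5, and the nearest pair was WT-Sham, at -1.02. Without the nucleus that stood apart the level was 4107 CPM and the log2 ratio -1.57.

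The balance of the lists, that is the log2 ratio of the S lists minus that of the G2/M lists, was 1.47 (exact conditional interval 1.35 to 1.59) over CM2/CM5, and 1.61 without the nucleus that stood apart. It was 1.48, 1.57, 0.82 and 1.60 by library, smallest in WT-Sham with its 5 nuclei. CM2/CM1 nuclei held 1.37 S UMIs per G2/M UMI, CM2/CM5 nuclei 0.496 and CM1/CM1 nuclei 1.31, so that the balance over CM1/CM1 was 0.07 (-0.05 to 0.18), or 0.21 (0.09 to 0.33) without the nucleus that stood apart. The proportion of summed S to summed G2/M lists in CM2/CM1 was thus near that of CM1/CM1, at a level 6.13 times as high for the S lists and 5.86 times as high for the G2/M lists. Single lists differed more, from 3.84 times the CM1/CM1 level for the G2/M regulators to 11.3 times for cytokinesis.

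**Figure D2:**
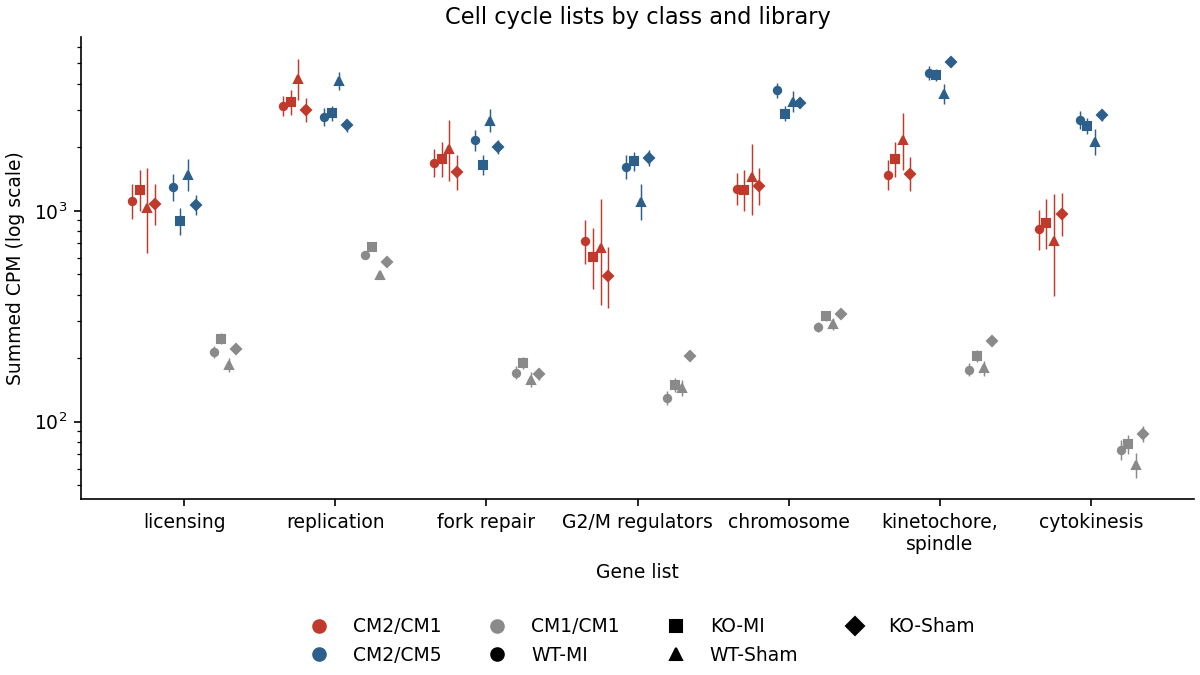
Summed CPM (y axis, log scale) of the 7 cell cycle lists (x axis) in CM2/CM1, CM2/CM5 and CM1/CM1, with 1 symbol per library and exact 95% Poisson intervals as bars. CM2/CM1 (red) lies with CM2/CM5 (blue) in the licensing, replication and repair lists, and between CM2/CM5 and CM1/CM1 (grey) in the 4 G2/M lists.

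Genes are called higher or lower below where 20 or more UMIs were present over both sums, the ratio of CPM was at least 2-fold and its counting interval excluded 1. Against CM2/CM5, 6931 genes could be called. Of these 92 (1.33%) were higher in CM2/CM1 and 289 (4.17%) were lower. The genes of the S lists that had enough UMIs numbered 79 of 85, of which 6 were higher, 4 lower and 69 neither, with a median log2 ratio of 0.09 against -0.06 over all genes. Of the 89 G2/M genes, 85 had enough UMIs, and 2 were higher, 68 lower and 15 neither, with a median of -1.81. Without the nucleus that stood apart 66 were lower. By library, 79, 79, 64 and 82 of the 85 G2/M genes had a lower CPM than in CM2/CM5. For the 79 S genes those counts were 46, 31, 45 and 37. Of the 85 G2/M genes, 9, 20, 38 and 23 had no UMI in CM2/CM1 in that library, as did 2, 3, 25 and 3 of the S genes, so a lower value there may be a gene that was not sampled. Over all 6931 genes 58.0%, 51.9%, 56.6% and 53.2% were lower, against 92.9%, 92.9%, 75.3% and 96.5% of the G2/M genes.

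Within the licensing list 16 of 23 genes lay above the CM2/CM5 level and 7 below it, with 3 called higher and 1 lower. Orc1, the largest subunit of the origin recognition complex (chromosome 4, 108579423 to 108614833), had 18 UMIs in 14 CM2/CM1 nuclei against 13 UMIs in all of CM2/CM5, a log2 ratio of 2.02 (0.91 to 3.17). It was higher in all 4 libraries, at 79.7, 31.9, 51.4 and 92.8 CPM against 27.6, 9.80, 10.7 and 19.2, on 1 to 8 UMIs each. Gins2, of the replicative helicase, stood at 1.30 and Mcm4, of the same helicase, at 1.55. Gins2 was higher in the MI libraries only, at 99.7 and 63.7 CPM against 27.6 and 9.80. In the Sham libraries it was lower, at 51.4 and 13.3 CPM against 64.5 and 22.4, on 1 UMI each. Cdt1 (0.88), Cdc6 (0.74) and Mcm10 (0.89), which also act in loading or activating the helicase, passed no call. The members with the most UMIs over all CM2 nuclei, which CM2/CM5 dominates, were E2f7, a repressor of E2F targets, with 19 UMIs in CM2/CM1 and -0.76 (-1.55 to -0.04), Orc6 with 22 UMIs and 0.20, and Mcm6 with 26 UMIs and 0.61. The gene called lower was Dbf4, the activator of the Cdc7 kinase, with 2 UMIs against 61, a log2 ratio of -3.38 (-6.46 to -1.47), whereas Cdc7 itself stood at -0.43. The cyclins of S phase entry had few UMIs, 1 of Ccne1 and 12 of Ccne2.

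In the replication list Pola1 (chromosome X, 93304767 to 93632155) had 113 UMIs, at 439, 430, 771 and 358 CPM. The CM2/CM5 values were 249, 323, 570 and 233 CPM, lower in each library, and the log2 ratio was 0.54 (0.20 to 0.87). A Pola1 UMI was found in 73.8% of CM2/CM1 nuclei against 48.7% of CM2/CM5 and 17.1% of CM1/CM1, and after thinning in 36.9%, 21.8% and 6.03%. Hells, a chromatin remodeller of replicating DNA, stood at 0.90 (0.43 to 1.36) and was found in 61.5% and 31.5% of nuclei (23.1% and 13.2% after thinning). Atad2, a chromatin factor, was near the CM2/CM5 level at -0.29 (-0.62 to 0.03). Pola2, the second subunit of the same polymerase, was higher (1.40). Rrm2, a subunit of ribonucleotide reductase, and Asf1b, a histone chaperone, were lower at -1.06 and -1.91. By library Rrm2 stood at 9.97, 31.9, 51.4 and 79.6 CPM against 89.8, 73.5, 64.5 and 86.3, on 1 to 6 UMIs each.

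The repair list was slightly below CM2/CM5, at 1678 CPM against 2027, and Neil3 alone made up 232 of the 1530 UMIs of CM2/CM5 in it. Genes of the list that passed no call included Mms22l, which acts at stalled forks (0.56, interval 0.06 to 1.05), Blm, a helicase (-0.53), and Fancd2 (-0.34).

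**Figure D3:**
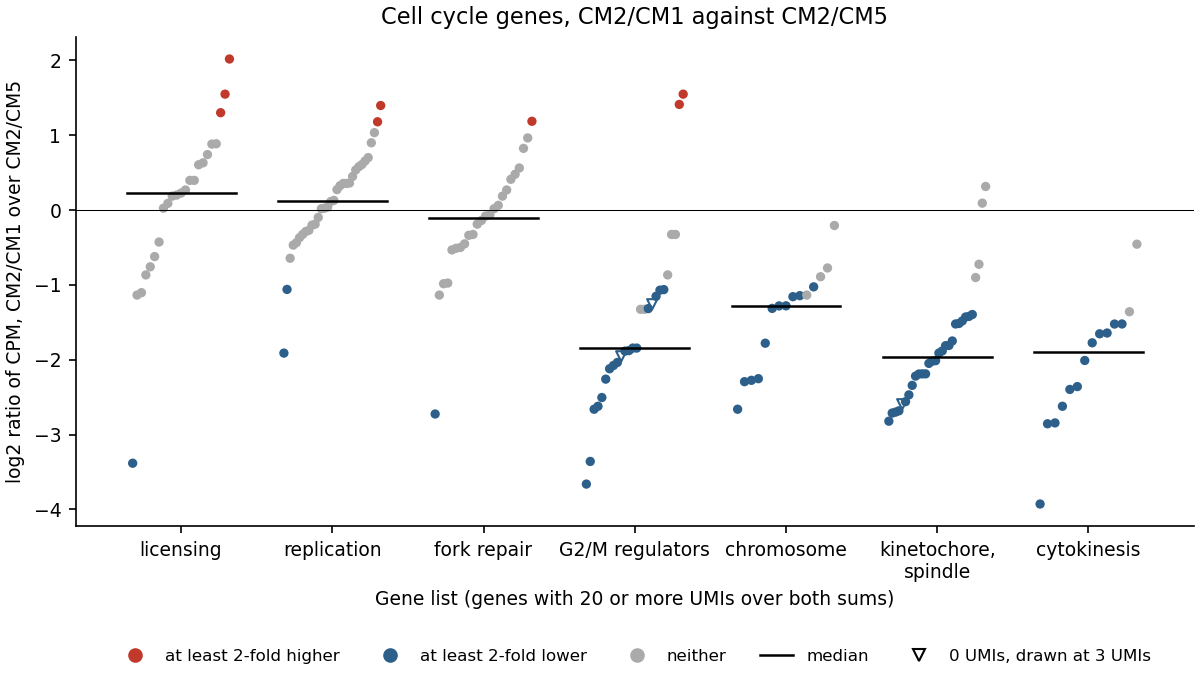
Log2 ratio of CPM of CM2/CM1 over CM2/CM5 (y axis) for each gene of the 7 cell cycle lists (x axis) with 20 or more UMIs over both sums. Colours mark genes called higher or lower, black bars list medians, and open triangles genes without a UMI in CM2/CM1 drawn at 3 UMIs. The 3 S lists scatter around 0, whereas 68 of the 85 G2/M genes are called lower.

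Among the G2/M regulators 19 of 26 genes with enough UMIs were lower and 2 higher. Ccnb1 (cyclin B1) and Plk1 (polo-like kinase 1), which drive entry into mitosis, had no UMI in any CM2/CM1 nucleus, against 34 and 21 in CM2/CM5, so that the log2 ratio was at most -1.95 and -1.26 with 3 UMIs as the limit. Ccnb2 had 2 UMIs against 60. Birc5, Cdca8 and Bub1b, the regulators with the most UMIs over all CM2 nuclei, which act in the chromosomal passenger complex and the spindle checkpoint, stood at -1.84, -2.12 and -1.07. Of the others, Cdk1 and Ccna2 (cyclin A2), which are already present in S phase, both stood at -0.33 (Cdk1 had the most UMIs of the regulators in CM2/CM1, 18), with intervals of -1.17 to 0.44 and -1.92 to 1.02. Ccna2 rested on 5, 0, 1 and 0 UMIs by library, against 3, 8, 2 and 9 in CM2/CM5. Mybl2, an activator that E2F factors induce, was higher with 10 UMIs against 11 (1.41, interval 0.02 to 2.79). Mad2l1, of the spindle checkpoint, was higher too, with 13 UMIs in each class (1.55).

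In the chromosome list 11 of 15 genes were lower and none higher. Smc4, a condensin subunit, stood at -1.16 (-1.66 to -0.68) and Esco2, which acetylates cohesin, at -1.31. Ncapd3, of condensin II, was near the CM2/CM5 level at -0.21. In the kinetochore and spindle list 26 of 30 were lower. Kif15, a spindle motor, had 18 UMIs against 245 (-2.22) and Knl1, the kinetochore scaffold, 36 against 301 (-1.51). Ska1, which couples kinetochores to microtubules, had none against 53. The centromere gene Cenpp, with 97 UMIs, stood at -0.90 (-1.23 to -0.59). Cenpk and Kntc1 were the members not below CM2/CM5, at 0.09 and 0.32.

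The summed cytokinesis list stood at -1.61 over CM2/CM5 (interval -1.82 to -1.41), which overlapped the kinetochore and spindle list (-1.52, -1.67 to -1.37), and 12 of 14 genes were lower. Prc1, which bundles the central spindle, had 15 UMIs against 231 (-2.40), Ect2, which sets the cleavage furrow, 32 against 269 (-1.52), and Iqgap3, a scaffold protein, 2 against 89 (-3.93). Diaph3, a formin, was closest to CM2/CM5 at -0.46 (-0.82 to -0.10), and its UMI was found in 70.8% of CM2/CM1 and 75.1% of CM2/CM5 nuclei. Against CM1/CM1 the same summed list stood at 11.3 times its level.

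The genes with the lowest log2 ratios over CM2/CM5 were, in order, Bora (an activator of Aurora A, -4.14), Iqgap3, Pbk (a mitotic kinase, -3.66), 1700042O10Rik, Dbf4, Ccnb2 (-3.36), Wdr48 and Nup37, each with 1 or 2 UMIs in CM2/CM1. The highest were Hba-a2, Hba-a1, Hbb-bt and Hbb-bs (haemoglobin chains, 3.69 to 3.02), Car2 (carbonic anhydrase, 3.13), Mkrn1 and Ntm (2.06 each) and Orc1 (2.02). The nucleus that stood apart held most haemoglobin UMIs, 11 of the 15 of Car2 and 12 of the 20 of Mkrn1, and without it these 6 genes were no longer called. The counts of called genes were then 86 higher and 274 lower. In its absence the highest genes were Ntm, Orc1, Selenos, Samhd1, Gm13483, Helq, Meg3 and Zfr2 (2.12 to 1.84), each seen in 6 to 15 nuclei. Several of these ratios changed with the library left out. Ntm fell to 1.57 without KO-MI, which held 13 of its 20 UMIs. Meg3, a long noncoding RNA, stood at 369, 159, 0 and 106 CPM against 55.3, 152, 21.5 and 16.0, and its ratio went from 1.86 to 0.87 without WT-MI and to 3.15 without KO-MI. In CM1/CM1 Meg3 stood at 310, 379, 44.0 and 39.7 CPM, so a high level in MI libraries was not particular to CM2/CM1. Gm13483 stood at 1.08 without KO-MI and 2.83 without WT-MI. Selenos fell to 1.44 and Zfr2 to 1.27 without WT-MI, whereas Samhd1 rose to 2.63 without WT-Sham and Helq to 2.48 without WT-MI. The haemoglobin pairs share near-identical copies, so their split is uncertain.

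Against CM1/CM1, 14061 genes could be called, of which 640 (4.55%) were higher and 129 (0.917%) lower. All 85 S genes had enough UMIs and 72 were higher. Of 85 G2/M genes 62 were higher (57 without the nucleus that stood apart), and no gene of either group was lower. The median log2 ratio was 2.57 for the S lists and 2.67 for the G2/M lists, against 0.23 over all genes, with genes without a UMI entered at 3 UMIs. The UMI limit was reached mainly through the far larger sum of CM1/CM1, and CM2/CM1 nuclei held more genes per nucleus, whose part in the counts was not tested. The highest were Efcab11 (5.53), E2f7 (5.52), Fancd2 (of the Fanconi anaemia repair pathway, 5.31), Knl1 (5.01), Neil3 (4.86), Mybl2 (4.80), Ttk (a checkpoint kinase, 4.77) and Esco2 (4.76). The lowest, Gosr1, 4732440D04Rik, Tm2d2, Slc22a5, Gm49359, Egln3, Rnpepl1 and Twf2 (-3.18 to -2.74), rested on 1 or 2 UMIs in CM2/CM1 each.

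No gene of G1 or inhibitor of the cycle was called against CM2/CM5. The list of D cyclins and G1 kinases summed to 314 CPM in CM2/CM1, 334 in CM2/CM5 and 396 in CM1/CM1. Of its 6 genes Ccnd2 had 10 UMIs (-0.08 over CM2/CM5 and -0.95 over CM1/CM1), Ccnd3 9, Ccnd1 3, Cdk2 10, Cdk4 12 and Cdk6 37. Cdk2, the kinase of cyclins E and A, was higher than in CM1/CM1 (1.95). The list of cycle inhibitors summed to 601, 668 and 328 CPM, and 9 of its 16 genes had enough UMIs to be called against CM2/CM5. It also holds genes of the MuvB core. Lin54 (32 UMIs), Lin52 (30), Rbl1 (17) and Lin9 (15) held most of its 155 UMIs in CM2/CM1, so the sum is not a level of kinase inhibitors. Over CM1/CM1, Lin54 and Lin9, of the MuvB core (2.69 and 1.85), and Rbl1, the pocket protein p107, with 17 UMIs, were higher, whereas the kinase inhibitors Cdkn1a, Cdkn1b and Cdkn1c had 4, 2 and 3 UMIs and Cdkn2a, Cdkn2b and Lin37 none. Rb1 had 21 UMIs, Rbl2 9, Lin52 30, Btg1 7, and Btg2, Cdkn2c and Cdkn2d 5 each, and none of these 7 was called in either comparison.

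The CM2/CM1 nuclei carried cardiomyocyte transcripts at the level of the rest of CM2. The 17 cardiomyocyte genes summed to 49466 CPM in CM2/CM1, 47460 in CM2/CM5 and 61887 in CM1/CM1, and all 17 lay below CM1/CM1, between -0.58 and -0.08, with none called. Ttn (titin) was found in all 65 nuclei. Genes of the immature cardiomyocyte (5221, 4921 and 5828 CPM), of injury (1403, 1223 and 1550) and of the respiratory chain (28158, 31450 and 32551) gave 1 call against CM2/CM5, a respiratory gene that was lower, with Actc1 at 0.10, Ankrd1 at 0.16 and Cox4i1 at -0.23 over CM2/CM5. These sums pooled libraries in unlike proportions, with WT-MI giving 100340 of 257976 UMIs in CM2/CM1 and 144711 of 754722 in CM2/CM5. By library, the log2 ratio over CM2/CM5 was 0.07, -0.21, 0.57 and -0.90 for the injury list. For the respiratory list it was -0.10, 0.29, -0.23 and -0.03, so the pooled direction did not hold in every library. The injury list was higher in both MI libraries of CM2/CM1 (2103 and 1975 CPM) than in both Sham libraries (463 and 239 CPM), as it was in CM2/CM5 and CM1/CM1.

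No marker of another cell type was called against CM2/CM5 apart from the haemoglobin genes described above, but few had enough UMIs for a call (1 of 10 myeloid, 6 of 8 fibroblast, 3 of 10 endothelial, 1 of 6 mural, 0 of 5 epicardial and 1 of 4 atrial). Against CM1/CM1, 1 endothelial gene was higher. Summed CPM in CM2/CM1, CM2/CM5 and CM1/CM1 were 105, 72.9 and 103 for myeloid genes (27 UMIs in CM2/CM1, Lyz2 12), 802, 828 and 943 for fibroblasts (Col3a1 81 UMIs), 605, 580 and 610 for endothelium (Fabp4 119 UMIs), 105, 79.5 and 73.3 for mural cells (Cspg4 15 UMIs), 42.6, 33.1 and 34.1 for epicardium (Msln 3 UMIs) and 46.5, 54.3 and 33.9 for atrial cardiomyocytes (Myl4 10 UMIs). The median CM2/CM1 nucleus held 2 fibroblast, 2 endothelial and no myeloid UMIs.

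Single nuclei varied widely in the S lists in CM2/CM1 and in CM2/CM5, with a narrower middle 50% of CPM in CM2/CM1. CM2/CM1 nuclei held 1 to 49 S UMIs with a median of 23, and CM2/CM5 nuclei 1 to 62 with a median of 22. For the G2/M lists the medians were 15 (2 to 112) and 42 (3 to 122). In CPM per nucleus the middle 50% of CM2/CM1 ran from 4316 to 8381 for the S lists and from 3114 to 4777 for the G2/M lists, and that of CM2/CM5 from 3449 to 8482 and from 8026 to 15529. More G2/M than S UMIs were found in 11 of 65 CM2/CM1 nuclei (16.9%, interval 8.76 to 28.3%) and in 147 of 197 CM2/CM5 nuclei (74.6%, 67.9 to 80.5%). By library these shares were 14.3%, 13.3%, 20% and 20.8% in CM2/CM1, against 69.7%, 76.6%, 54.5% and 80%. The remaining 50 CM2/CM5 nuclei held at least as many S as G2/M UMIs, so the classes overlapped in this measure.

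**Figure D4:**
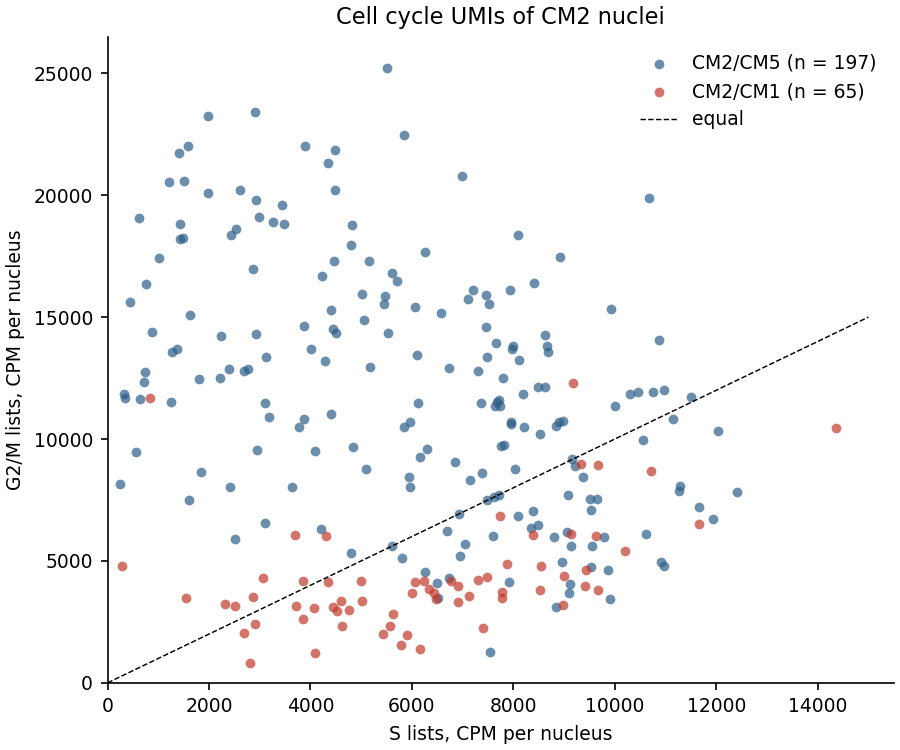
Summed CPM of the G2/M lists (y axis) against that of the S lists (x axis), both linear, in each CM2/CM1 nucleus (red, 65) and CM2/CM5 nucleus (blue, 197), with a dashed line where both are equal. Red points spread along the S axis and mostly lie below the line, whereas blue points reach far above it. The red point at upper left is the nucleus with the most red blood cell UMIs.

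The transfer score, from 0 to 1, sets which label a nucleus received. The largest score was below 0.5 in 2 CM2/CM1 nuclei and at or above 0.9 in 18, against 168 of 197 in CM2/CM5. The CM2/CM1 nucleus nearest the border had 0.384 for CM1 and 0.383 for CM5, with 26 S and 15 G2/M UMIs. The nearest CM2/CM5 nucleus had 0.526 for CM5 and 0.411 for CM1, with 37 and 15. Over both classes, nuclei with a CM5 score under 0.1 (32 nuclei) stood at 5238 S and 4003 G2/M CPM, those from 0.1 to 0.3 (25 nuclei) at 6697 and 4643, those from 0.3 to 0.5 (11 nuclei, 8 of them CM2/CM1) at 6612 and 7325, those from 0.5 to 0.7 (9 nuclei) at 7540 and 5906, those from 0.7 to 0.9 (17 nuclei) at 6942 and 6444, and those from 0.9 (168 nuclei) at 5887 and 12990. The G2/M level of CM2/CM5 nuclei with a CM5 score from 0.5 to 0.9 was thus nearer to that of CM2/CM1 than to that of the other CM2/CM5 nuclei. The S levels from 0.5 to 0.7 and from 0.7 to 0.9 had intervals of 6616 to 8557 and 6293 to 7641 CPM. Both lay above the S interval under 0.1 (4855 to 5644) and overlapped that from 0.1 to 0.3 (6191 to 7232). The group under 0.1 included the nucleus that stood apart, with its 112 G2/M UMIs. That from 0.3 to 0.5 included a CM2/CM5 nucleus with 100 G2/M UMIs. The score was computed from the same counts, so these levels are a description.

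**Figure D5:**
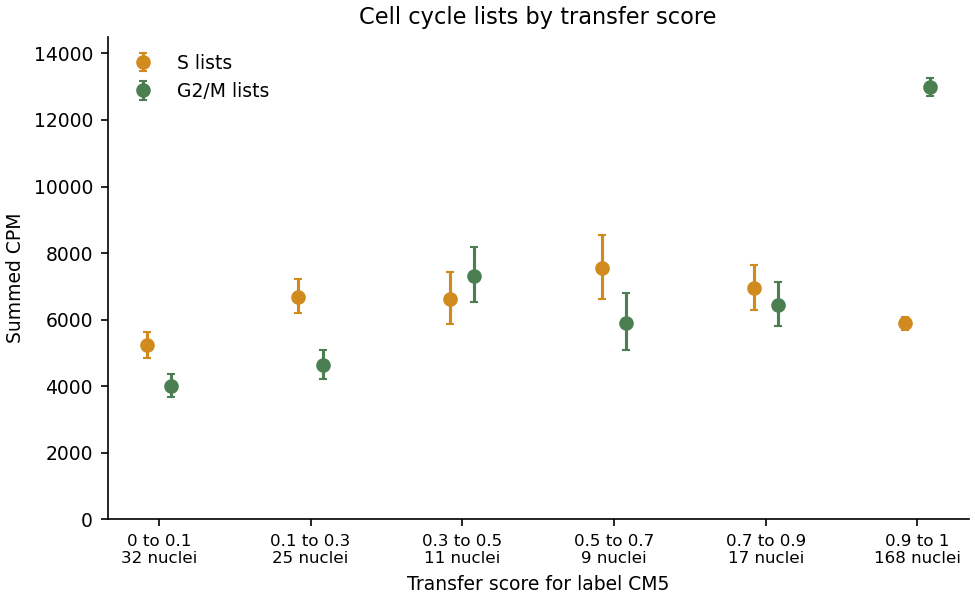
Summed CPM (y axis, linear, from 0) of the S lists and G2/M lists in CM2/CM1 and CM2/CM5 nuclei grouped by their transfer score for label CM5 (x axis), with exact 95% Poisson intervals as bars. The S lists stay between 5238 and 7540 CPM, whereas the G2/M lists reach 12990 CPM only in the highest score group. The lowest score group includes the nucleus with the most red blood cell UMIs.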

How the data were processed

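Single-nucleus RNA-seq of 4 libraries was used. The labels and methods name Cell Ranger, whose version is not given in the sources used here, with a GRCm38 (mm10) pre-mRNA reference, removal of doublets and a filter on genes per nucleus, after which nuclei held 537 to 2499 genes. Seurat 3 gave clusters and transferred labels. The authors deposited UMI counts without normalization for 22574 genes and 8585 nuclei, with the percent of mitochondrial UMIs, and transfer scores as a fraction from 0 to 1. No doublet caller was run again, and 2 deposited columns were not used. The labels and methods name different versions of the 10x kit, and the strain entries of the labels differ between libraries although the protocol gives a single strain.

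For each class, UMIs of its nuclei were added up, in all libraries or in 1, and scaled to CPM. With 1 library per group, and classes set by clustering and label transfer from the same counts, no test was made. Poisson intervals were used for CPM, Clopper-Pearson intervals for shares and conditional binomial intervals for log2 ratios, all at 95% and for counting error only (Python 3.11.15, numpy 2.4.6, scipy 1.17.1). The interval and calling steps were tested on simulated Poisson sums. These held no variation between nuclei or libraries, so the check covers counting error only. Alternatives were other UMI minimums, thinning, median-ratio scaling, means over libraries or nuclei, a minimum score of 0.5, and leaving out each library or each list's most abundant gene. Leaving out the nucleus that stood apart, or the 4 nuclei outside cluster 19, or that nucleus and each library together, was chosen after seeing the data. A gene without a UMI was entered at 3 UMIs. Named genes were the 3 markers, the 3 members of each cell cycle list with the most UMIs in CM2, G1 genes and inhibitors with 5 or more UMIs, Nfe2l1, the most abundant member of every other list, and the 8 highest and 8 lowest called genes of each comparison. Others named were chosen after their values were seen. The class, its lists and the comparisons were chosen with earlier results of these data known. Positions are from GENCODE M21 (GRCm38), where 42 of the 81 genes named by the rule overlap another gene. Strand use in counting is not given in the sources used here, so these are uncertain. Mki67, Top2a, Pola1 and Orc1 are among them. A few genes of the lists are not reported here by name.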

Additional observations from a re-analysis of the deposited data

Results flagged for a closer look

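5 values of the CM2/CM1 nuclei changed in opposite directions between the MI and Sham libraries of the genotypes. Each group is 1 library, WT-Sham held 5 CM2/CM1 nuclei, and the differences were not tested. Summed S lists were lower in the library labelled WT-MI (5960 CPM) than in WT-Sham (7197) and higher in KO-MI (6291) than in KO-Sham (5611), a difference of 1918 CPM between the genotypes. The Poisson intervals of these values overlapped within each genotype, at 5492 to 6457 against 6054 to 8493 CPM and 5686 to 6943 against 5089 to 6172 CPM. Summed G2/M lists went the same ways (4295 against 4987 CPM in WT, 4491 against 4271 CPM in KO), a difference of 911 CPM, also with overlapping intervals. The log2 ratio of the G2/M lists over CM2/CM5 was lower in WT-MI than in WT-Sham (-1.54 and -1.02) and higher in KO-MI than in KO-Sham (-1.36 and -1.60), a difference of 0.761. Over CM1/CM1 the ratios were 2.70 and 2.88 in WT and 2.58 and 2.31 in KO, a difference of 0.451. The balance of the S and G2/M lists over CM2/CM5 was 1.48 and 0.82 in WT and 1.57 and 1.60 in KO, a difference of -0.69.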

How the results depend on the processing

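Alternatives were recomputed for 10 results, the share of CM2, the 5 ratios and balance of lists and the 4 counts of genes, and 95 of 111 values stayed within the counting interval of the reported value or within 1.5 times a reported count. None of the 111 was marked as reversed. Shares and counts cannot change sign, and a ratio was so marked only where its reported interval excluded equality. The S lists over CM2/CM5 were thus exempt, and their sign changed with the library left out. No paired analysis was possible because the results come from no test. The classes were set by clustering and label transfer from the same counts, and each group was 1 library. Each library holds all 3 classes, and the ratios within libraries are in the report. Thinning to 1000 UMIs gave 0.092 for the S lists over CM2/CM5 and 2.69 over CM1/CM1, 41 genes higher and 97 lower than in CM2/CM5, and 391 higher and 42 lower than in CM1/CM1, since fewer UMIs were left to call on. Median-ratio scaling gave 2.52 for the S lists and 2.46 for the G2/M lists over CM1/CM1, and 195 genes lower than in CM1/CM1. A minimum of 10 UMIs gave 146 genes higher than in CM2/CM5, and one of 50 UMIs 18 higher and 168 lower. Without the nucleus of many red blood cell UMIs the G2/M lists stood at -1.57 over CM2/CM5 and 2.46 over CM1/CM1, and the balance at 1.61.

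With each library left out in turn, the share of CM2 ranged from 20.2 to 27.2%, the S lists from -0.07 to 0.06 over CM2/CM5 and from 2.55 to 2.65 over CM1/CM1, the G2/M lists from -1.52 to -1.38 and from 2.50 to 2.67, and the balance from 1.36 to 1.58. The counts ranged from 77 to 95 for genes higher than in CM2/CM5, 209 to 291 for genes lower than in CM2/CM5, 544 to 636 for genes higher than in CM1/CM1 and 104 to 139 for genes lower than in CM1/CM1.

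Of 1864 further values, 21 reversed. Without the nucleus of many red blood cell UMIs, Hba-a1 stood at -0.013 over CM2/CM5, and over CM1/CM1 the red blood cell list stood at -0.36, Hba-a1 at -0.66, Hba-a2 at -0.40 and Hbb-bs at -0.35. Leaving out libraries in turn gave ranges of -0.12 to 0.55 for the injury list over CM2/CM5, -0.30 to 0.013 for the respiratory list over CM2/CM5, -0.048 to 4.08 for Car2 over CM2/CM5 and -0.048 to 3.86 for Hba-a1 over CM2/CM5. Over CM1/CM1 it gave -0.23 to 0.020 for the immature list, -0.55 to 3.04 for the red blood cell list, -0.50 to 3.14 for Car2, -0.047 to 3.45 for Hbb-bt over CM1/CM1, -0.56 to 2.77 for Hbb-bs, -0.89 to 3.19 for Hba-a1, -0.57 to 3.43 for Hba-a2 and -0.62 to 0.10 for Ankrd1. The lowest value of each blood gene, and of the injury list, was that without WT-MI. The injury list as a mean over libraries stood at -0.12 over CM2/CM5, and thinning gave -0.52 for Orc6, -0.059 for Birc5 and 0.047 for Ankrd1 over CM1/CM1. Their causes were not tested.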
